A study of Homo sapiens with 8 samples.

Results

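Immediate early genes are genes whose transcription starts within minutes of a stimulus such as serum or a growth factor, without new protein synthesis. The set described here holds 10 genes grouped under this name: the zinc finger factor EGR1, the AP-1 subunits FOS, FOSB, FOSL1, FOSL2, JUN, JUNB and JUND, and the early response genes IER2 and IER3. Members were every probe set that the platform annotation assigns to exactly 1 of these symbols, which gave 22 of the 54675 probe sets on the array and 10 of its 19775 named genes. All 10 genes, and 21 of the 22 probe sets, lay above the limit for low signal, a mean of 7.43 on the log2 scale. The remaining probe set, JUND 229117_s_at, read between 6.08 and 6.56.

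The cells were HepG2, an established human hepatocellular carcinoma line, in serum-free medium without quercetin (control) or with 3 µM of quercetin, a plant flavonol. RNA came from 4 times, 2, 4, 12 and 24 h, with 1 Affymetrix array per treatment and time, 8 in all. Every group, control included, had been serum starved before treatment. The series text and the sample protocols disagree on how long that starvation lasted, and its length is not used. No vehicle and no separate cultures are named. Cells in serum, or from before treatment, were not analysed here, so each difference is between times or treatments within serum-free medium.

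In quiescent cells, serum and growth factors act through the MAP kinases ERK, JNK and p38 on factors already bound to DNA. The serum response factor SRF, with its ELK partners, binds the CArG box of promoters such as EGR1 and FOS, and CREB or ATF dimers bind the CRE. FOS proteins pair with JUN proteins to form AP-1, which binds the sequence TGAGTCA and close variants, and JUN proteins can also pair with each other. In liver cells these genes are known for their response to partial hepatectomy, injury and growth factors. Their messages are short-lived, and the peak after serum usually falls within the first hour or hours.

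The promoters of 5 members are printed, those in which any of the motifs searched was matched: a CArG box or CRE of this pathway in EGR1 and JUND, and a TATA box, a general core promoter element, in the others. Each run is the 250 bases before the RefSeq start site on GRCh38.p14, read 5′ to 3′ on the gene's strand, with matches to the motifs searched in capitals. EGR1 lies at chr5:138465229-138465478 on the plus strand and FOS at chr14:75278578-75278827 on the plus strand. FOSB lies at chr19:45467746-45467995 and JUNB at chr19:12791236-12791485, both on the plus strand, and JUND at chr19:18281623-18281872 on the minus strand.
EGR1: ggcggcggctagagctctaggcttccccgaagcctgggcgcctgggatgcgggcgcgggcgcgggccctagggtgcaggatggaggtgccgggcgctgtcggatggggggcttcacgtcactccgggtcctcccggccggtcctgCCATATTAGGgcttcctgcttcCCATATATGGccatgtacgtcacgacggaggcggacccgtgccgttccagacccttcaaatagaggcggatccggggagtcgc
FOS: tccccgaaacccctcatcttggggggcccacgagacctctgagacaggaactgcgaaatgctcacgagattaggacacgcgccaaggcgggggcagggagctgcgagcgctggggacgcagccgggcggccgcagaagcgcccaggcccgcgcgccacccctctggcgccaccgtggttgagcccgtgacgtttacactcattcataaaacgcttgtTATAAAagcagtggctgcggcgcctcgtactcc
FOSB: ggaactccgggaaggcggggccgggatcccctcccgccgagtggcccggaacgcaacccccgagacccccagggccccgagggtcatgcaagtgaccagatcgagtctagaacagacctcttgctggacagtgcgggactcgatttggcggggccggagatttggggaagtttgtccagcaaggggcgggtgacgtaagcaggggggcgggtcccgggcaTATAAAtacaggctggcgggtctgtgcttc
JUNB: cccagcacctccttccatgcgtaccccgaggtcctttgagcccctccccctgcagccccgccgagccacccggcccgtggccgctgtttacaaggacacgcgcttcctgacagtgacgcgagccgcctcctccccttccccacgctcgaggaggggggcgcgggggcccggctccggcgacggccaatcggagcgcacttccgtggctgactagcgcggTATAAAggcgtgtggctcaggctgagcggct
JUND: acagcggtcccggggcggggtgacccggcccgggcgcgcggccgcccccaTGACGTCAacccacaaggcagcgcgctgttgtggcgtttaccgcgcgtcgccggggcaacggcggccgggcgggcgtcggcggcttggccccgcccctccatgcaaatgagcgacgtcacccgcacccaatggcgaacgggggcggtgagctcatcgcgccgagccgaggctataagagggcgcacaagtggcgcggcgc
The RefSeq table held promoters for 8 of the 10 members. On both strands, the search covered the CArG box, the CRE (TGACGTCA), the AP-1 site (TGACTCA or TGAGTCA), the EGR site (GCGGGGGCG or GCGTGGGCG) and the TATA box (TATAAA); no 2 of the matches found overlapped. EGR1 held 2 CArG boxes, at bases -105 to -96 and -83 to -74 counted back from the start site, a motif found in 1.16% of all 35116 promoters of the same length. The CRE, found in 1.65% of promoters, was matched in JUND, at bases -200 to -193. TATA boxes, found in 10.7% of promoters, were matched in FOS at -33 to -28, in FOSB at -30 to -25 and in JUNB at -31 to -26. The AP-1 site (4.2% of promoters) and the EGR site (5.37%) had no match in the 8 windows. Only these patterns within the windows were searched. Close variants and sites further upstream were not covered, so a missing match, such as a CArG box in FOS, does not show that the element is absent. FOS, FOSB and JUNB all hold the TATA letters near the start site. FOS and JUNB rose over the times studied and FOSB did not pass the test. A relation between motif and change was not tested.

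The labelled cell type was checked against its markers first. All 8 hepatocyte and hepatoma markers were above the limit, with means from 11.46 to 15.09 (ALB 15.06, AFP 14.62). The markers of other cells were mixed: 3 of 4 leukocyte, 3 of 5 fibroblast and 1 of 4 endothelial markers lay above the limit, LYZ being high at 13.99. The other 6 ran from 7.52 to 9.23, and those below the limit included CD14, LUM, CDH5, VWF and KDR. The arrays did not share 1 distribution: the SD of all values within an array was 1.95 and 1.90 at 24 h and 1.74 to 1.86 before. The 18S control probe sets ranged from 7.29 to 12.01 between arrays and differed within the 2 h pair, 8.57 in control against 12.01 with quercetin. The hybridization spike-ins were low in control at 2 h and on both 12 h arrays (11.19 to 11.35) and 11.83 to 12.11 on the other 5. The part of these differences in the results that follow was not tested.

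The clearest pattern among the members was time. Of the 10 genes, 8 read higher on both 24 h arrays than on any of the 6 earlier arrays, the exceptions being FOSB and FOSL1; over all 13298 genes tested this held for 29.6%. In the limma F-test over the 4 times, 8 of 10 passed an adjusted p of 0.05, beside 38.1% of all genes. For 24 h against 2 h, 7 of 10 rose (EGR1, IER3, FOSL2, FOS, JUN, JUNB and IER2) and none fell, beside 17.3% of all genes that rose. The median member difference was 0.77 on the log2 scale and that of all genes 0.09. With 24 h against 4 h, 8 of 10 rose (32.8% of all genes), and with 24 h against 12 h also 8 of 10 (19% of all genes); these 3 contrasts share the 24 h arrays. JUND was the added gene in both.

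**Figure D1:**
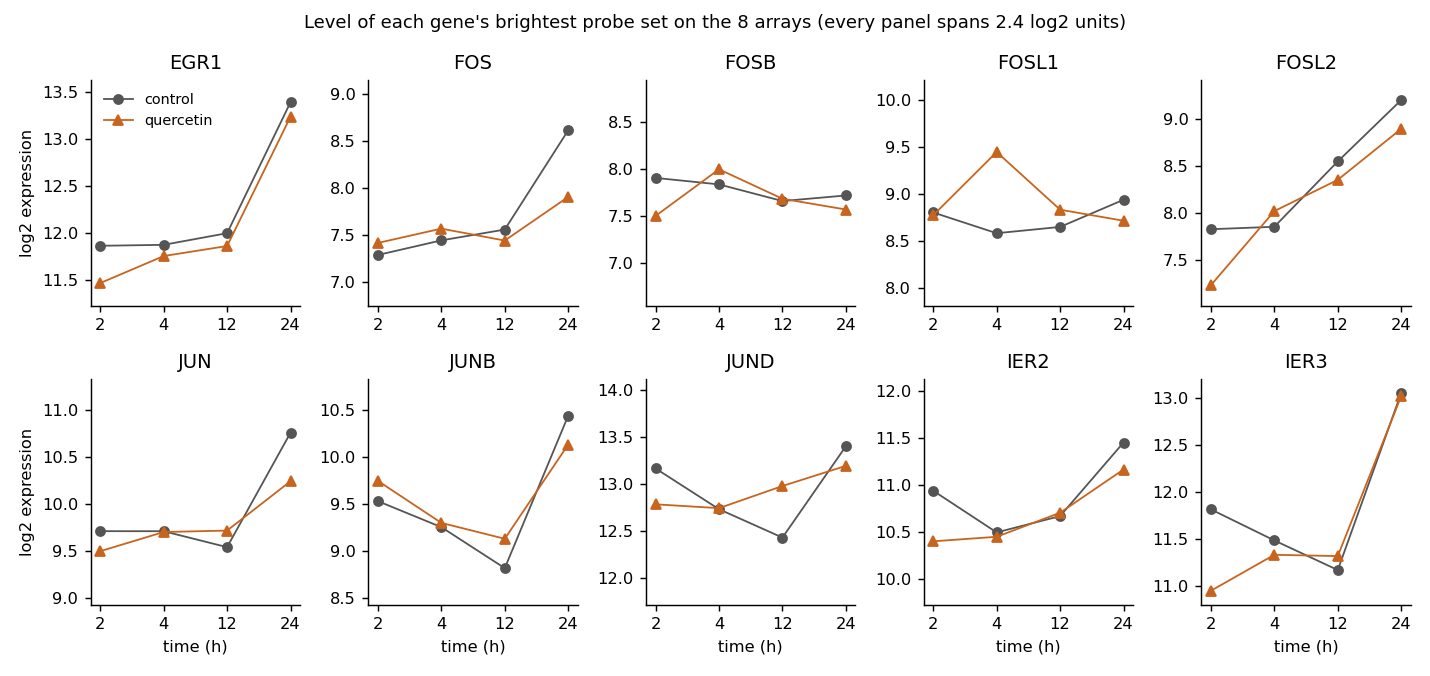
Log2 expression (vertical axis) of the brightest probe set of each of the 10 genes against time in hours, for control (grey circles) and quercetin (orange triangles), 1 array per point, with lines only joining arrays of a treatment. EGR1 and IER3 stand more than 1.2 above every earlier array at 24 h in both treatments, whereas FOSB and FOSL1 do not.

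EGR1, a zinc finger factor that binds GC-rich sites, read 11.86, 11.87, 12.00 and 13.39 at 2, 4, 12 and 24 h in control on probe set 227404_s_at. With quercetin it read 11.47, 11.75, 11.86 and 13.24. The 2 arrays at 24 h stood apart from the 6 others, which spanned 11.47 to 12.00, and the lower 24 h array was 1.24 above the highest of these. The gene rose by 1.65 ± 0.13 (SE) from 2 to 24 h, a 3.13-fold difference (limma, adjusted p = 3.63e-08), and the rise was present in control (1.53) and in quercetin (1.77). From 2 to 4 h and to 12 h it differed by 0.15 and 0.26, neither of which passed the test. Its other probe sets moved less: 201694_s_at by 0.79 (adjusted p = 0.0114 among probe sets) and 201693_s_at by 0.53 (adjusted p = 0.0725), although on both the 24 h arrays also read highest. The size of the EGR1 rise therefore depended on the probe set, with 0.99 for the mean of the 3.

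IER3, a gene of cell survival signalling that is phosphorylated by ERK, had the same form. On its 1 probe set, control read 11.82, 11.49, 11.17 and 13.05 and quercetin 10.95, 11.33, 11.32 and 13.02 at the 4 times. Both 24 h arrays were high and almost equal, and the earlier 6 reached no more than 11.82. The difference from 2 to 24 h was 1.65 ± 0.18, 3.15-fold (limma, adjusted p = 2.15e-06), and from 12 to 24 h 1.79 ± 0.18 (adjusted p = 7.86e-07). EGR1 and IER3 sit at the 99.7 percentile of all 13298 genes for the difference from 2 to 24 h.

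On its brightest probe set, FOSL2 (Fra-2) was the only member called higher before 24 h. It is a FOS family member that accumulates later and longer than FOS after stimulation. Its brightest probe set, 228188_at, read 7.83, 7.85, 8.55 and 9.20 in control and 7.23, 8.02, 8.35 and 8.90 with quercetin. Both 12 h arrays lay above the 4 earlier ones and below both 24 h arrays. From 2 to 12 h the gene rose by 0.92 ± 0.20 (limma, adjusted p = 0.0158), the only 1 of 10 members to do so, beside 1.68% of all genes. From 2 to 24 h it rose by 1.52 ± 0.20, 2.86-fold (adjusted p = 2.75e-05). The 12 h call was lost without the quercetin 2 h array (0.68), without the control 12 h array (0.95) and without the quercetin 12 h array (0.90), each time in the adjusted p and not in the direction. The 12 h call was also lost with a block for the spike-in class (0.68). The choice of 228188_at over 205409_at rested on means of 8.24 and 8.23 over all arrays, 24 h included. From 2 to 12 h the others gave 0.49 (225262_at), 0.27 (218880_at), -0.09 (218881_s_at) and -0.39 (205409_at), and none passed. The 5 probe sets of FOSL2 were not alike: for 24 h against 2 h, 218880_at (1.33) and 225262_at (0.87) rose, while 205409_at (0.26) and 218881_s_at (-0.25) did not pass. Averaged over all 5, FOSL2 differed by 0.24 from 2 to 12 h, which did not pass, and by 0.75 from 2 to 24 h, which did.

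FOS, the short-lived partner of JUN in AP-1, was one of the dimmer members. It read 7.29, 7.44, 7.56 and 8.61 in control and 7.42, 7.57, 7.44 and 7.91 with quercetin. The 6 earlier arrays lay within 0.28 of each other, and at 24 h control was the higher array, with quercetin minus control at -0.71. The mean difference from 2 to 24 h was 0.91 ± 0.21, 1.88-fold (limma, adjusted p = 0.00387), made of 1.33 in control and 0.49 with quercetin. Without the control 24 h array it was 0.53 (adjusted p = 0.178), and without the control 2 h array 0.73 (adjusted p = 0.0602).

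FOSB and FOSL1 (Fra-1), the remaining FOS family members, showed no such pattern. FOSB read 7.90, 7.83, 7.66 and 7.72 in control and 7.50, 7.99, 7.68 and 7.57 with quercetin, a range of 0.50 over the 8 arrays. FOSL1 read 8.81, 8.59, 8.65 and 8.94 in control and 8.78, 9.45, 8.84 and 8.72 with quercetin. For 24 h against 2 h the differences were -0.06 ± 0.19 for FOSB (limma, adjusted p = 0.864) and 0.04 ± 0.22 for FOSL1 (adjusted p = 0.924). Their signs turned after cyclic loess (0.0058 and -0.05), so neither has a direction. The 1 array of FOSL1 that stands out, quercetin at 4 h, was 0.61 above the next highest quercetin array.

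Among the JUN family, JUN is the main transactivating partner in AP-1, JUNB a weaker one that can oppose JUN, and JUND the one that is usually present without stimulation. JUN on probe set 201464_x_at read 9.71, 9.71, 9.54 and 10.76 in control and 9.50, 9.70, 9.72 and 10.24 with quercetin. The 24 h arrays were both above the others, control more than quercetin. The rise from 2 to 24 h was 0.90 ± 0.19, 1.86-fold (limma, adjusted p = 0.00171), and without the control 24 h array 0.65 (adjusted p = 0.101). An s or x in a probe set name marks probes that can match more than 1 transcript. Probe sets 201465_s_at (0.69) and 201466_s_at (1.08) of JUN also rose, but 213281_at, the only JUN probe set with neither letter, spanned only 7.21 to 7.72 and differed by 0.08 (adjusted p = 0.811 among probe sets).

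JUNB had a dip before its rise. Control read 9.53, 9.25, 8.82 and 10.44 and quercetin 9.75, 9.30, 9.13 and 10.13. In both treatments 12 h was the lowest time and 24 h the highest. From 12 to 24 h JUNB rose by 1.31 ± 0.19, 2.48-fold (limma, adjusted p = 6.75e-05), and from 2 to 24 h by 0.65 ± 0.19 (adjusted p = 0.0174). The difference from 2 to 12 h was -0.66 ± 0.19 and missed the threshold (adjusted p = 0.0609), but passed it after cyclic loess (-0.67), after quantile normalization (-0.69) and without the quercetin 12 h array (-0.83). The 24 h against 2 h call was lost without the control 2 h array (0.55), the quercetin 2 h array (0.75) or the control 24 h array (0.40), and after cyclic loess (0.47) and quantile normalization (0.38). With a block for the spike-in class, that call (0.55) and the call from 12 to 24 h (1.11) were both lost.

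JUND was high throughout on its brightest probe set, 203752_s_at. Control read 13.17, 12.73, 12.43 and 13.40 and quercetin 12.79, 12.75, 12.98 and 13.20. The 24 h arrays were highest by only 0.03. From 2 to 24 h it differed by 0.32 ± 0.15 (limma, adjusted p = 0.140), while it rose by 0.56 from 4 h (adjusted p = 0.00541) and by 0.59 from 12 h (adjusted p = 0.00779). Both of those calls were lost after cyclic loess (0.09 and 0.25) and quantile normalization (0.16 and 0.25), and without the control 24 h array (0.43 and 0.46). They were also lost without the control array of the earlier time, at 0.55 without control at 4 h and 0.22 without control at 12 h. The difference from 2 h, in turn, passed without the control 2 h array (0.57) and without either 12 h array (0.32). Of the other tested JUND probe sets, 203751_x_at and 214326_x_at, neither passed the F-test over times.

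IER2, a nuclear early response gene, read 10.94, 10.49, 10.67 and 11.45 in control and 10.40, 10.45, 10.70 and 11.16 with quercetin. The 2 arrays of 24 h were highest, by 0.23 over the control 2 h array. The gene rose by 0.64 ± 0.17 from 2 h, 1.56-fold (limma, adjusted p = 0.00854), and by 0.84 ± 0.17 from 4 h (adjusted p = 0.00042). The call from 2 h was lost without the quercetin 2 h array (0.42), the control 24 h array (0.59) or the quercetin 24 h array (0.69), and after quantile normalization (0.35).

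**Figure D2:**
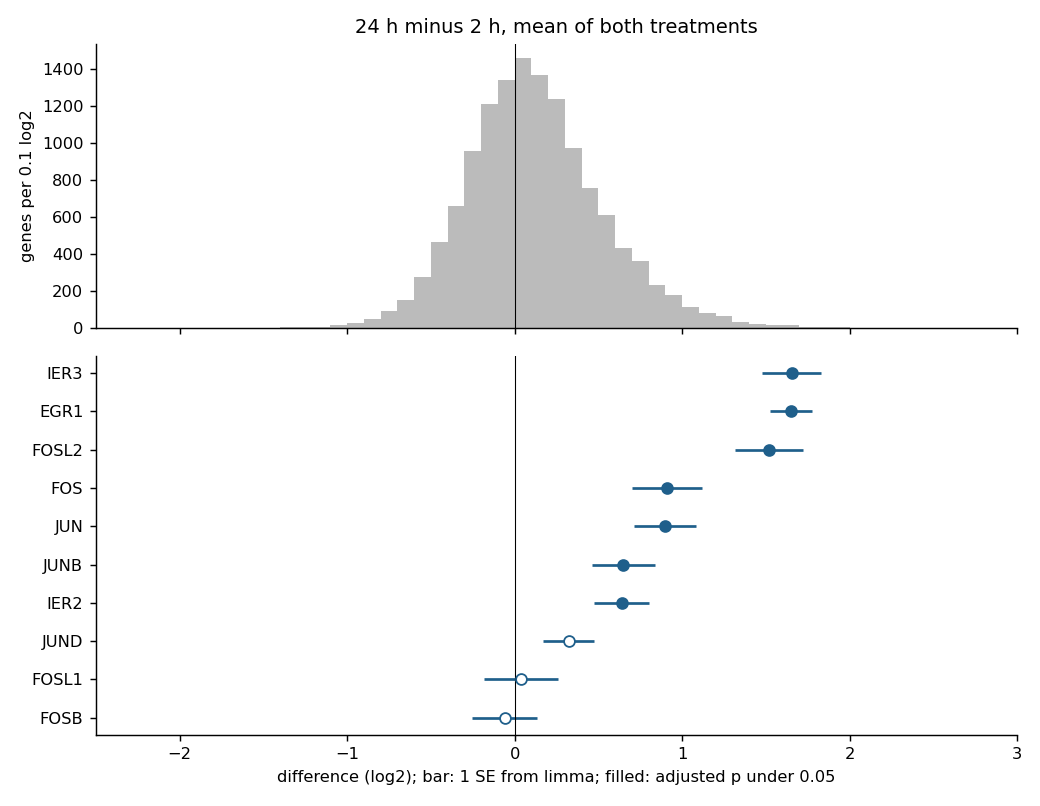
Top, number of genes per 0.1 log2 units for the difference of 24 h minus 2 h (horizontal axis) over the 13298 genes tested; bottom, the same difference for the 10 members with 1 SE, filled where the limma adjusted p is under 0.05. The 7 filled members lie between 0.64 and 1.65, right of the centre of all genes at 0.09, and FOSB and FOSL1 lie at it.

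The order of the differences from 2 to 24 h was IER3, EGR1, FOSL2, FOS, JUN, JUNB, IER2, JUND, FOSL1 and FOSB. Within IER3, EGR1 and FOSL2, within FOS and JUN and within JUNB and IER2, neighbours differed by less than the larger of their SEs. EGR1 and IER3 have only probe sets marked s, so the alternative of probe sets without a mark does not cover them. The alternative of every probe set on its own counts only the brightest. In each of the 18 alternatives run, which include leaving out each array in turn, the calls for EGR1, IER3 and FOSL2 from 2 to 24 h held. Without the control 24 h array those 3 were the only calls left, beside 7.95% of all genes called in either direction. The same array bore on the contrasts from 4 h and 12 h. Without it the median member difference was 0.65 from 4 h and 0.56 from 12 h, beside 0.13 and 0.11 for all genes. From 12 h without the control 12 h array, the member median was 0.62, beside 0.09 for all genes. FOSL2 from 12 to 24 h (0.60, adjusted p = 0.0369) held in only 9 of 18 alternatives. Between 2 and 4 h no member passed, in either direction, while 0.0376% of all genes rose and 0.496% fell. An unadjusted p under 0.05 in limma was found for 0 of 10 members and for 17.7% of all genes. The difference between these shares was not tested.

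The scale on which the arrays were set moved these values. As deposited, the median of all genes was 0.19 for 24 h against 4 h and 0.16 for 24 h against 12 h, and after cyclic loess -0.01 and 0.01. The medians of the members were 0.81 and 0.69 as deposited and 0.58 and 0.62 after cyclic loess. The count of members above all 6 earlier arrays at 24 h was 8 as deposited and 7 after cyclic loess or quantile normalization, JUND being the one lost, beside 18.3% and 16.1% of all genes. Beside the time pattern, the ACTB probe sets at the 3′ end read above those at the 5′ end by 1.36 and 1.39 at 24 h and by 0.88 to 1.40 on the earlier arrays. The same difference for GAPDH was 0.41 and 0.42 at 24 h, below the 0.47 to 0.61 of the earlier arrays; the part of RNA quality in the result was not tested.

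**Figure D3:**
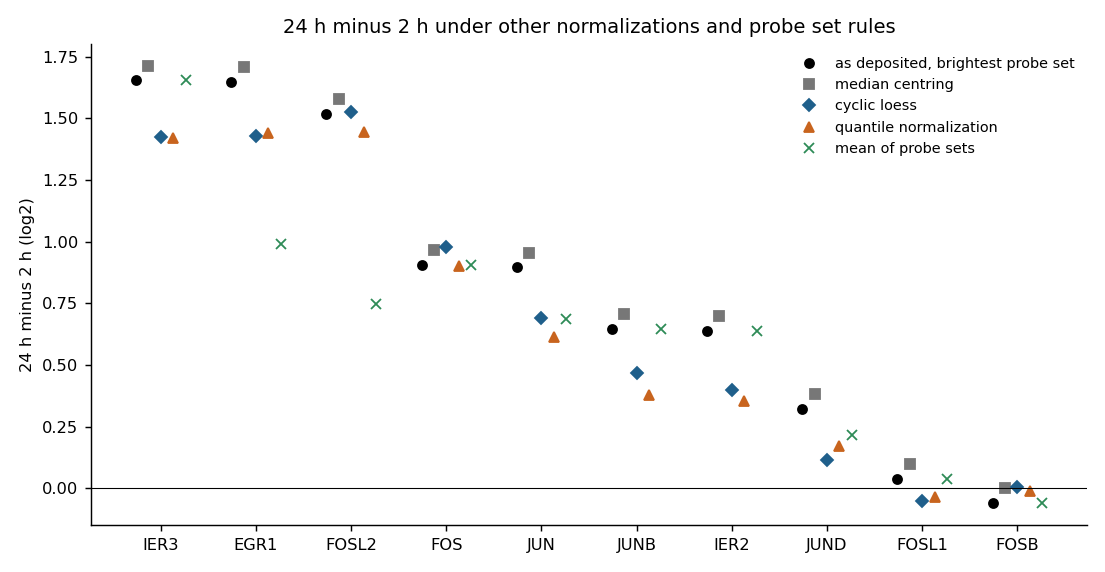
Difference of 24 h minus 2 h (log2, vertical axis) of the 10 genes as deposited on the brightest probe set (black circles), after 3 other normalizations, and averaged over all probe sets of the gene (green crosses). EGR1 and FOSL2 fall to 0.99 and 0.75 for the mean of probe sets, and FOSB and FOSL1 stay near 0 in every setting shown.

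Across the 8 arrays the members that rose also varied together, to differing degrees, as a description with no test, since all points share the time course. Pearson's r over 8 arrays was highest at 0.96 for EGR1 with IER3, 0.94 for EGR1 with JUN, 0.94 for FOS with JUN and 0.93 for IER2 with IER3. Other pairs were looser, with 0.75 for EGR1 with JUNB, 0.46 for FOSL2 with JUND and 0.39 for FOSL2 with JUNB. FOSB and FOSL1 correlated with the other 8 members at -0.28 to 0.14 and with each other at 0.56. Outside the members, the genes most like EGR1 were PHLDB3 (0.99), NCOA7 (0.99) and ARID5B (0.99). Those most like FOS were TP53I13 (0.98), RRAS2 (0.97) and KIFC3 (0.97), and those most like JUN were PDE4A (0.997), NFKBIE (0.99) and NCK2 (0.99).

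Quercetin against control was the second comparison described here. No member passed limma over the 4 times, and neither did any other gene (0% called); at an unadjusted p under 0.05 there were 785 genes, 5.9%, and 1 member, EGR1. EGR1 was 0.20 ± 0.09 lower with quercetin (adjusted p = 0.844), and by brightest probe sets was the only member with 1 sign at all 4 times, which 13.8% of all genes had. The 4 differences were -0.40, -0.12, -0.14 and -0.15 at 2, 4, 12 and 24 h. Its probe set 201694_s_at read 0.41 higher with quercetin at 24 h, so among EGR1's probe sets that sign belongs to the brightest alone. JUN 213281_at, not the brightest of its gene, was higher with quercetin at all 4 times (0.39, 0.34, 0.32 and 0.11).

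The mean differences of the other members ran from -0.23 ± 0.14 for FOSL2 to 0.20 ± 0.16 for FOSL1, with adjusted p from 0.848 to 0.993 in limma. IER3 differed by -0.23 ± 0.12 and IER2 by -0.21 ± 0.12; without the 2 h pair these were -0.01 and -0.10, and that of FOSL2 -0.11. FOS differed by -0.14 ± 0.15, and by 0.05 without the 24 h pair. FOSL1 gave -0.02 without the 4 h pair. JUN differed by -0.14 ± 0.13 on its brightest probe set, but by 0.10 for the mean of its probe sets and 0.29 on 213281_at, so it has no settled direction. FOSB (-0.09 ± 0.14), JUNB (0.07 ± 0.13) and JUND (-0.01 ± 0.11) were nearest to 0.

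At single times 1 array is set against 1, so these values have no test. No member's brightest probe set reached 1 in size at any time, beside 0.474%, 0.0677%, 0.346% and 0.384% of all genes at 2, 4, 12 and 24 h. The largest were IER3 at 2 h (-0.87), FOSL1 at 4 h (0.86) and FOS at 24 h (-0.71). IER2 and FOSL2 were also lower with quercetin at 2 h, by -0.54 and -0.60, in the pair whose 18S and spike-in probe sets differed. At 12 h JUND was 0.55 higher on its brightest probe set, 1.43 on 203751_x_at and 0.90 on 214326_x_at, but -0.08 on the dim 229117_s_at.

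At 24 h all 10 members read lower with quercetin on their brightest probe sets, with a median of -0.26 beside -0.10 for all genes, of which 66.2% were lower. After cyclic loess 9 of 10 were lower, beside 50.2% of all genes, and IER3 read 0.08 higher. Other probe sets went the opposite way at 24 h, 201465_s_at (0.07), 201466_s_at (0.08) and 213281_at (0.11) of JUN and 201694_s_at (0.41) of EGR1. At 2 h 8 of 10 were lower (58% of all genes), at 4 h 4 of 10 (54.2%) and at 12 h 3 of 10 (40.7%). The 24 h count rests on 2 arrays and, being of 1 pair, has no replicate check.

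**Figure D4:**
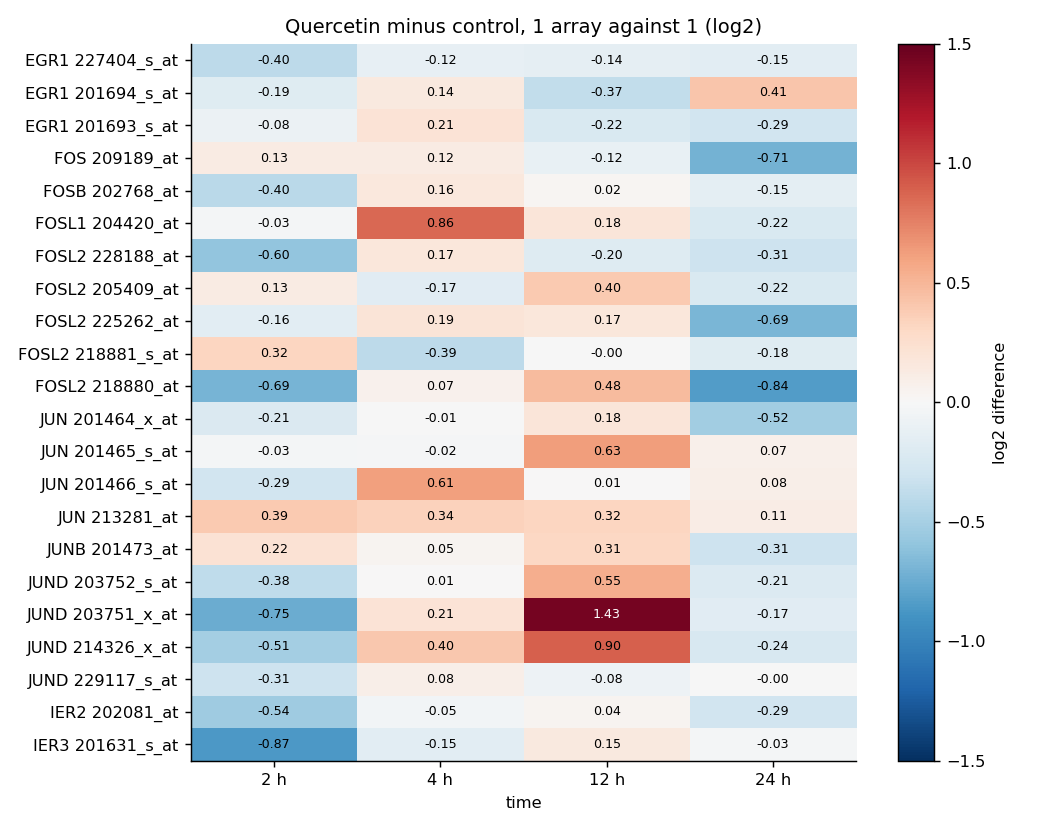
Quercetin minus control on the log2 scale (colour and printed value) for the 22 member probe sets (rows) at the 4 times (columns), 1 array against 1 in each cell. No row for a brightest probe set reaches 1, and the largest cell is JUND 203751_x_at at 12 h with 1.43.

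Early and late pairs were set against each other in a further model, as the quercetin difference at 12 and 24 h minus the one at 2 and 4 h. No member passed limma (0.368% of all genes did), and 2 of 10, IER3 and JUND, had an unadjusted p under 0.05, as did 4.32% of all genes. IER3 gave 0.57 ± 0.21 (adjusted p = 0.530), with pairs of -0.87 and -0.15 early and 0.15 and -0.03 late, and JUND 0.36 ± 0.16 with an adjusted p that rounds to 1.

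The rest of the pathway was followed through 5 lists. Of 16 other immediate early transcription factors, 15 were on the array and 11 tested; 5 rose from 2 to 24 h, none fell, and 8 passed the F-test over times, with a median of 0.40. Over all genes, 17.3% rose from 2 to 24 h, 3.98% fell and 38.1% passed the F-test, and the counts of all 5 lists are to be read beside these shares. MAFF, a small MAF factor, read 7.84, 8.06, 8.93 and 10.04 in control and 7.23, 8.53, 8.86 and 10.12 with quercetin. It rose by 2.54 ± 0.22 from 2 to 24 h (limma, adjusted p = 1.39e-07) and already by 1.36 at 12 h (adjusted p = 0.0015). BHLHE40, a repressor tied to the clock and hypoxia, rose by 1.67 ± 0.22 (adjusted p = 2.54e-05), and IER5 by 0.79 ± 0.23 (adjusted p = 0.0194). BHLHE40 was the 1 list gene called in the model of late against early quercetin pairs. Late minus early was 1.001 ± 0.26 (limma, adjusted p = 0.0390), with quercetin below control at 2 and 4 h (-0.63 and -0.61) and above it at 12 and 24 h (0.51 and 0.25). That model called no gene after cyclic loess, after quantile normalization or with eBayes without a trend. The BHLHE40 call was lost in those settings. MYC, the growth regulator, fell by 0.94 from 2 to 12 h (adjusted p = 0.0017) and rose by 1.33 from 12 to 24 h (adjusted p = 6.9e-06), the order of times seen in JUNB.

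Of 21 other early response genes, 17 were tested; 9 rose from 2 to 24 h, none fell, and 15 passed the F-test over times (17.3%, 3.98% and 38.1% of all genes), with a median of 0.42. CCN2 (CTGF), a matricellular protein, fell by 1.23 from 2 to 12 h and rose by 1.94 from 12 to 24 h, with adjusted p of 0.000487 and 2.74e-07. The antiproliferative gene BTG1 rose by 1.66 ± 0.18 from 2 to 24 h. The EGFR inhibitor ERRFI1 rose by 0.92 ± 0.14 and the kinase SGK1 by 1.09 ± 0.19.

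Of 21 upstream kinases and factors, 15 were tested; 5 rose from 2 to 24 h (17.3% of all genes) and none fell, with a median of 0.22. MAP2K1 (MEK1), the kinase that activates ERK, rose by 0.96 ± 0.18 (limma, adjusted p = 0.000667), the SRF partner ELK4 by 1.04 ± 0.20 (adjusted p = 0.00086) and MAPK9 (JNK2) by 0.53 ± 0.19 (adjusted p = 0.0455). EGFR fell by 0.75 from 2 to 12 h and rose by 0.96 from 12 to 24 h. Among 11 AP-1 partners and brakes, all tested, 1 rose from 2 to 24 h (17.3% of all genes): ATF2, which pairs with JUN, by 1.03 ± 0.17 (adjusted p = 0.000198). COP1, a ubiquitin ligase for JUN, passed the F-test over times but differed by 0.38 ± 0.18 from 2 to 24 h (adjusted p = 0.132).

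Of 14 genes taken as AP-1 and EGR1 targets, 8 were tested; 2 rose from 2 to 24 h (17.3% of all genes) and none fell, with a median of -0.03. VEGFA, the angiogenic growth factor, rose by 1.17 ± 0.17 (limma, adjusted p = 6.52e-05) and TGFB1 by 0.66 ± 0.23 (adjusted p = 0.0471). CCND1, the cyclin of G1, fell by 0.50 from 2 to 12 h (adjusted p = 0.0383) and differed by -0.15 at 24 h. TGFB1 was the 1 list gene to reach 1 in size with quercetin at a time, reading 8.85 in control and 9.87 with quercetin at 12 h. No gene of the 5 lists passed for quercetin over the times.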

How the data were processed

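RNA from 8 HepG2 samples, 1 per treatment and time, was measured on Affymetrix 3′ arrays. The table the authors deposited holds log2 values of 54675 probe sets. Per the submitters' processing notes it comes from RMA, with version and settings not given in the sources used here. Intensities were not used. Precision is limited by the number of arrays. There were 41091 probe sets with 1 gene symbol, 1801 with several, which were not named, 11721 without a listing and 62 controls. For 41037, the symbol was brought up to date by Entrez identifier.

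For each of 19775 genes the brightest probe set, by its mean over the arrays, was taken. Testing covered the 13298 genes brighter than 7.43, the median over probe sets, and left out 6477. Tests used limma 3.58.1 in R 4.3.3 (lmFit, eBayes with a trend, Benjamini-Hochberg over all genes tested, threshold 0.05). The model held time and treatment, with 3 residual degrees of freedom; a second added early against late, with 2. All 8 arrays shared 1 estimate of the spread. There are no replicates: p-values measure how far differences vary between times and treatments, not between cultures. Single times were described by size, with a threshold of 1. The scripts were tested on simulated data.

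Members and gene lists were chosen with earlier results of these data known. The text names all members and, per list, at most 4 genes with the smallest p in the F-test over times among those called, any list gene of 1 in size with quercetin at a time, and for EGR1, FOS and JUN the 3 genes of highest Pearson r. Marker, chip control and spike-in probe sets are values of the arrays. BHLHE40 in the second model was singled out after its value was seen. The contrasts of 24 h against 4 h and 12 h, and the counts of arrays above others and of lower members, were added after seeing the data. Alternatives were other low-signal limits, probe set rules, normalizations, variance settings, a block for the spike-in class, and leaving out each array. Promoters and names came from RefSeq tables (GRCh38.p14).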

Additional observations from a re-analysis of the deposited data

Results flagged for a closer look

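In 20 groups of 4 arrays (each member in each treatment, brightest probe set), 3 had 1 array whose gap to the nearest other, as a share of the whole range, was above the critical value of Dixon's test. Chance gives that in about 1 of 20 groups. The 4 arrays of a group are 4 times and not replicates. EGR1 in control was highest at 24 h, 13.39 against 12.00 for the next array (share 0.912). JUN in control was highest at 24 h as well, 10.76 against 9.71 (share 0.86). FOSL1 with quercetin was highest at 4 h, 9.45 against 8.84 (share 0.839).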

How the results depend on the processing

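The counts of called members were 0 for quercetin over the times in all 16 alternatives, 0 for 4 h against 2 h in all 20 and 0 for early against late in all 12. For the F-test over times (8 called) probe sets with no s, x or a mark in the name (gene-specific) gave 4, of 7 genes that have one, and leaving out 1 array gave 4 to 8. For 12 h against 2 h (1 called, either direction) the stricter low-signal limit, the mean of probe sets and the spike-in block gave 0, cyclic loess 2, quantile normalization 3 and leaving out 1 array 0 to 2. For 24 h against 2 h (7 called) the gene-specific probe sets gave 4 and leaving out 1 array 3 to 8, with 3 left without the control 24 h array. For 24 h against 4 h (8 called) these were 4 and 5 to 8. For 24 h against 12 h (8 called) the gene-specific probe sets gave 4, cyclic loess 5, quantile normalization 5, the spike-in block 4 and leaving out 1 array 3 to 8. The lowest counts there came without the control 12 h or control 24 h array. Apart from the smaller number of genes, probe sets or arrays, the cause was not tested.

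Some values that were not called turned sign. For quercetin minus control over the times, leaving out 1 pair gave -0.23 to 0.045 for FOS, -0.18 to 0.012 for FOSB, -0.023 to 0.34 for FOSL1, -0.0155 to 0.19 for JUNB and -0.19 to 0.12 for JUND. JUN gave 0.10 with the mean of probe sets and 0.29 with its gene-specific one. JUND gave 0.059 with the mean of probe sets, 0.018 after cyclic loess and 0.12 with the spike-in block, and FOSB 0.012 with that block. For 24 h minus 2 h, FOSB gave 0.0058 after cyclic loess and 0.15 with the spike-in block, and -0.27 to 0.15 without 1 array. FOSL1 gave -0.049 after cyclic loess, -0.034 after quantile normalization and -0.24 to 0.32 without 1 array. JUN from 4 to 24 h was called on its brightest probe set and gave -0.056 on its gene-specific one. The quercetin model already pairs the treatments by time; without the time block it also called 0 members. Of the 7 genes called from 2 to 24 h, FOS has the lowest mean, 7.65, near the low-signal limit of 7.43.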
